A study of Mus musculus with 2 samples.

Results

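The 6 genes Slc17a6, Slc17a7, Slc17a8, Slc32a1, Gad1 and Gad2, which mark neurons as users of glutamate or of GABA, were followed over marker-defined brain regions in 2 spatial transcriptomes. They were chosen by name from the 32285 genes of the count tables, and all 6 were found by symbol. Each transcriptome came from 1 coronal brain section of 1 mouse, measured with the 10x Visium assay, in which poly(dT) primers at barcoded spots catch polyadenylated RNA and each molecule is counted once through its unique molecular identifier (UMI). Both mice expressed hM3Dq, an engineered receptor that the drug CNO switches on, and both had been given CNO. Mouse 1 carried the genotype label WT:C57BL/6J control and mouse 2 the label WT:CRISPR-Cas9 edited isogenic control. The mice formed 1 group (n = 2), and no untreated section was used here, so every comparison is between regions or image sides of treated mice. The sections were 10 µm thick and lay 1.9 mm posterior to bregma, away from the injection at 4.6 mm. The sides of the brain had been trimmed to fit the capture area of 6.5 mm, so lateral cortex was not measured. The labels give no age, no promoter for hM3Dq and no CNO dose.

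Neurons that signal with glutamate load it into synaptic vesicles through a vesicular glutamate transporter: VGLUT1, encoded by Slc17a7, VGLUT2, encoded by Slc17a6, or VGLUT3, encoded by Slc17a8. In textbook accounts of the rodent brain VGLUT1 prevails in cortical and hippocampal principal neurons, VGLUT2 in the thalamus and other subcortical relay nuclei, and VGLUT3 in scattered cells of several transmitter types. GABA neurons make GABA from glutamate with the glutamate decarboxylases GAD67 and GAD65, encoded by Gad1 and Gad2, and load it into vesicles with VGAT, encoded by Slc32a1, which also carries glycine. The thalamic reticular nucleus is a sheet of GABA neurons around a thalamus whose relay neurons are glutamatergic, and the hypothalamus mixes both kinds.

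The stretches of 250 bases just before a transcription start listed by RefSeq are shown for the 3 GABA genes, which were high in the same regions, and for Slc17a6 and Slc17a7, which were high in different ones. They are RefSeq sequences of GRCm38.p6, the build called mm10, written 5′ to 3′ along the gene's own strand. Capitals mark matches, on either strand, to 6 motifs that were searched: the GC box GGGCGG, the TATA motif TATAAA, the homeodomain motif TAATTA, one E-box CAGCTG, another E-box CACGTG and the cyclic AMP element TGACGTCA. Of the matches, 2 GC boxes of Slc17a7 overlap each other, and matches to different motifs do not overlap.
Gad1 (chr2:70561879-70562128, plus strand): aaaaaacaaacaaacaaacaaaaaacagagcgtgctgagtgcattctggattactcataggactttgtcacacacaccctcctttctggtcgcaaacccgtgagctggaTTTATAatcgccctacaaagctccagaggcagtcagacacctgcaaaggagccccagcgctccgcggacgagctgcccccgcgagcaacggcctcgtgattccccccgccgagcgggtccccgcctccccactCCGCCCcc
Gad2 (chr2:22622077-22622326, plus strand): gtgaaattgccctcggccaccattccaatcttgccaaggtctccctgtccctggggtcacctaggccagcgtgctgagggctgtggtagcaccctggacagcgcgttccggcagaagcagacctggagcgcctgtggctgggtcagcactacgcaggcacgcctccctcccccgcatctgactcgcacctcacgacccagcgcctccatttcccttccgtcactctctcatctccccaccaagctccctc
Slc32a1 (chr2:158610508-158610757, plus strand): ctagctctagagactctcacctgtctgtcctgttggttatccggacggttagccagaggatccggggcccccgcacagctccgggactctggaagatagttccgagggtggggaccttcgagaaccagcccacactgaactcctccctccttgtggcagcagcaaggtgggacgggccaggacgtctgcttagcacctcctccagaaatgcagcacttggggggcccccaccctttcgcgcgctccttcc
Slc17a6 (chr7:51621580-51621829, plus strand): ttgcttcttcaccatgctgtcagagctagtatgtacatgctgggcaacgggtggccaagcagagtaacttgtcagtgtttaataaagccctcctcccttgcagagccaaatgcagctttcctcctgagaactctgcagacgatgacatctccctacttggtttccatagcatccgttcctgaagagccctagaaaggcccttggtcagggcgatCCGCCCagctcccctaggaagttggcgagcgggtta
Slc17a7 (chr7:45163671-45163920, plus strand): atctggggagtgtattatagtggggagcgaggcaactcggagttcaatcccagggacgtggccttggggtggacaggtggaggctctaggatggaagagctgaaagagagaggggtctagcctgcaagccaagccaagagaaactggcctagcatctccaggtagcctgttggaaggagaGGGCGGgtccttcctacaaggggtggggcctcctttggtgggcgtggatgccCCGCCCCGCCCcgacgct

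The Slc17a7 stretch held 3 GC boxes, the Slc17a6 stretch 1 and the Gad1 stretch 1 GC box and 1 TATAAA. The stretches of Gad2 and Slc32a1 held none of the 6 motifs. Of 32851 promoters of the same length, 32.7% held a GC box and 12.4% TATAAA, while 4.84% held TAATTA, 13.001% CAGCTG, 6.02% CACGTG and 1.55% TGACGTCA. GC bases made up 58.0% of the Gad1 stretch, 64.0% of that of Gad2 and 62.4% of that of Slc32a1, against a median of 52.4% over all promoters. Those of Slc17a6 and Slc17a7 held 53.2% and 61.2%. Slc17a6 has a second listed start, and the stretch before it held 1 TAATTA and no GC box. On GRCm38.p6, Slc17a6 spans chr7:51621830-51671126, Slc17a7 chr7:45163921-45176139 and Slc17a8 chr10:89574020-89621249, while Slc32a1 spans chr2:158607260-158615747, Gad1 chr2:70561303-70602014 and Gad2 chr2:22621015-22693877. The spans of these 3 GABA genes begin upstream of the stretches shown, which therefore lie inside the gene spans, while those of Slc17a6 and Slc17a7 end just before the span begins.

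Mouse 1 gave 30671753 UMIs with a median of 7547 per spot, and mouse 2 gave 55315952 with a median of 14663. Spots were given a region by the best of 11 marker sets that hold none of the 6 genes, and of the spots used, 2533 of 3712 (mouse 1) and 2535 of 3548 (mouse 2) fell in the 6 regions described here. In mouse 1 and mouse 2, 98 and 95 spots were reticular thalamus, 461 and 473 hypothalamus, 93 and 84 habenula, 947 and 966 thalamus (the rest of it), 441 and 497 hippocampus, and 493 and 420 cortex. A spot is wider than a cell and can hold several cells. Prkcd in thalamus, Six3 in reticular thalamus, Tac2 in habenula, Hap1 in hypothalamus, Hpca in hippocampus and Tbr1 in cortex were each highest in their own region in both mice, as were all 11, 8 and 13 markers of thalamus, habenula and hypothalamus, 6 of 7 of reticular thalamus, and 8 of 11 and 8 of 12 of hippocampus and cortex. These markers also assigned the spots, so their levels describe the regions and do not test them. The hypothalamus set also took spots in the lower corners, more than 18 spot pitches from the midline: 43 in mouse 1 and 134 in mouse 2. Libraries shared 3366 barcodes, which on this array are spot positions.

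Over all spots, mouse 1 and mouse 2 gave 5670 and 12394 UMIs of Slc17a6, 6899 and 15144 of Slc17a7, 6244 and 10791 of Gad1, 3489 and 6226 of Gad2 and 1667 and 3590 of Slc32a1. Slc17a8 was sparse, with 74 and 143 UMIs, and had a UMI in 1.78% and 3.10% of spots. Levels below are UMIs scaled to a total of 1000000 UMIs per region (CPM) and intervals are exact 95% Poisson intervals, which cover counting error only. In bulk spots, fewer cells of a type and less RNA per cell cannot be told apart. Capture near the 3′ end differs between transcripts in unknown ways, so levels are compared between regions for each gene, and between genes only through shares that are then compared between regions.

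Slc17a6 (VGLUT2) had its highest level in the thalamus and its lowest in the hippocampus and cortex. Reticular thalamus had 49.3 CPM in mouse 1 and 66.7 CPM in mouse 2, hypothalamus 103 and 115, and habenula 253 and 279. Thalamus had 436 and 479.8 CPM, hippocampus 11.8 and 28.9, and cortex 29.1 and 34.5. The order thalamus, habenula, hypothalamus, reticular thalamus, cortex, hippocampus held in both mice, with no overlap between neighbours in that order over the mice. The last step was narrow, as cortex of mouse 1 (29.1 CPM) and hippocampus of mouse 2 (28.9 CPM) nearly met. White matter, taken as a background, had 41.4 and 63.4 CPM, so the levels in reticular thalamus, cortex and hippocampus lay near or under it. Whether white matter spots hold or adjoin neurons was not tested, and for several genes below other regions lay far under them. White matter is thus a reference level and no floor, and a level near or under it does not show that a gene is absent.

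Slc17a7 (VGLUT1) was highest in the hippocampus and cortex, which overlapped. Reticular thalamus had 57.8 and 86.1 CPM in mouse 1 and mouse 2, hypothalamus 25.3 and 38.9, and habenula 218 and 232. Thalamus had 207 and 231 CPM, hippocampus 465 and 553, and cortex 459 and 532. Hippocampus and cortex, and likewise habenula and thalamus, did not differ beyond the spread between mice, while the hypothalamus lay lowest. White matter had 159.6 and 178 CPM and choroid plexus, a secretory epithelium, 174 and 238, so the thalamic and habenular levels were close to those.

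Slc17a8 (VGLUT3) had few UMIs anywhere. Reticular thalamus had 0 UMIs in both mice, which allows up to 2.55 CPM in mouse 1 and 1.77 CPM in mouse 2 (3 counts of each total). Hypothalamus had 6 and 7 UMIs (1.53 and 1.16 CPM), habenula 9 and 9 (7.24 and 4.21 CPM), and thalamus 18 and 73 (1.88 and 3.86 CPM). Hippocampus had 9 and 20 UMIs (3.02 and 2.69 CPM) and cortex 8 and 8 (2.28 and 1.31 CPM). Habenula was highest in both mice, but its interval in mouse 2 ran from 1.93 to 7.998 CPM, and the thalamus of mouse 2 lay inside it.

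Slc32a1 (VGAT) was highest in the reticular thalamus, then in the hypothalamus. Reticular thalamus had 246 and 284 CPM in mouse 1 and mouse 2, hypothalamus 109 and 161, and habenula 8.85 and 9.83. Thalamus had 15.8 and 21.2 CPM, hippocampus 37.3 and 45.9, and cortex 57.3 and 74.5. The order reticular thalamus, hypothalamus, cortex, hippocampus, thalamus, habenula held in both mice and no neighbours overlapped. The white matter background had a mean of 59.8 CPM over the mice. Cortex lay near it, and hippocampus, thalamus and habenula lay under it.

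Gad1 (GAD67) was highest in the reticular thalamus, and the highest count of any spot was 61 UMIs in mouse 1 and 79 in mouse 2. Reticular thalamus had 1920.0 and 1663 CPM in mouse 1 and mouse 2, hypothalamus 213 and 289, and habenula 30.6 and 43.1. Thalamus had 53.2 and 63.5 CPM, hippocampus 148 and 169.7, and cortex 219.8 and 237. Hypothalamus and cortex overlapped, and habenula was lowest in both mice. The white matter background had a mean of 161 CPM over the mice. Hippocampus lay near it, and thalamus and habenula lay under it. White matter is thus no floor for Gad1, and the hippocampal level is not read as a lack of expression. Among the reticular spots, those with only reticular neighbours had 2774 and 2228 CPM, above the level over all reticular spots.

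Gad2 (GAD65) followed the same order at the top, with less contrast between reticular thalamus and hypothalamus. Reticular thalamus had 567 and 518 CPM in mouse 1 and mouse 2, hypothalamus 232 and 286, and habenula 26.6 and 33.2. Thalamus had 31.8 and 38.5 CPM, hippocampus 91.4 and 94.6, and cortex 85.8 and 78.4. Thalamus and habenula overlapped. Hippocampus lay above cortex in both mice for Gad2, whereas for Gad1 it lay below. The white matter background had a mean of 111 CPM of Gad2 over the mice. Hippocampus, cortex, thalamus and habenula all lay under it.

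**Figure D1:**
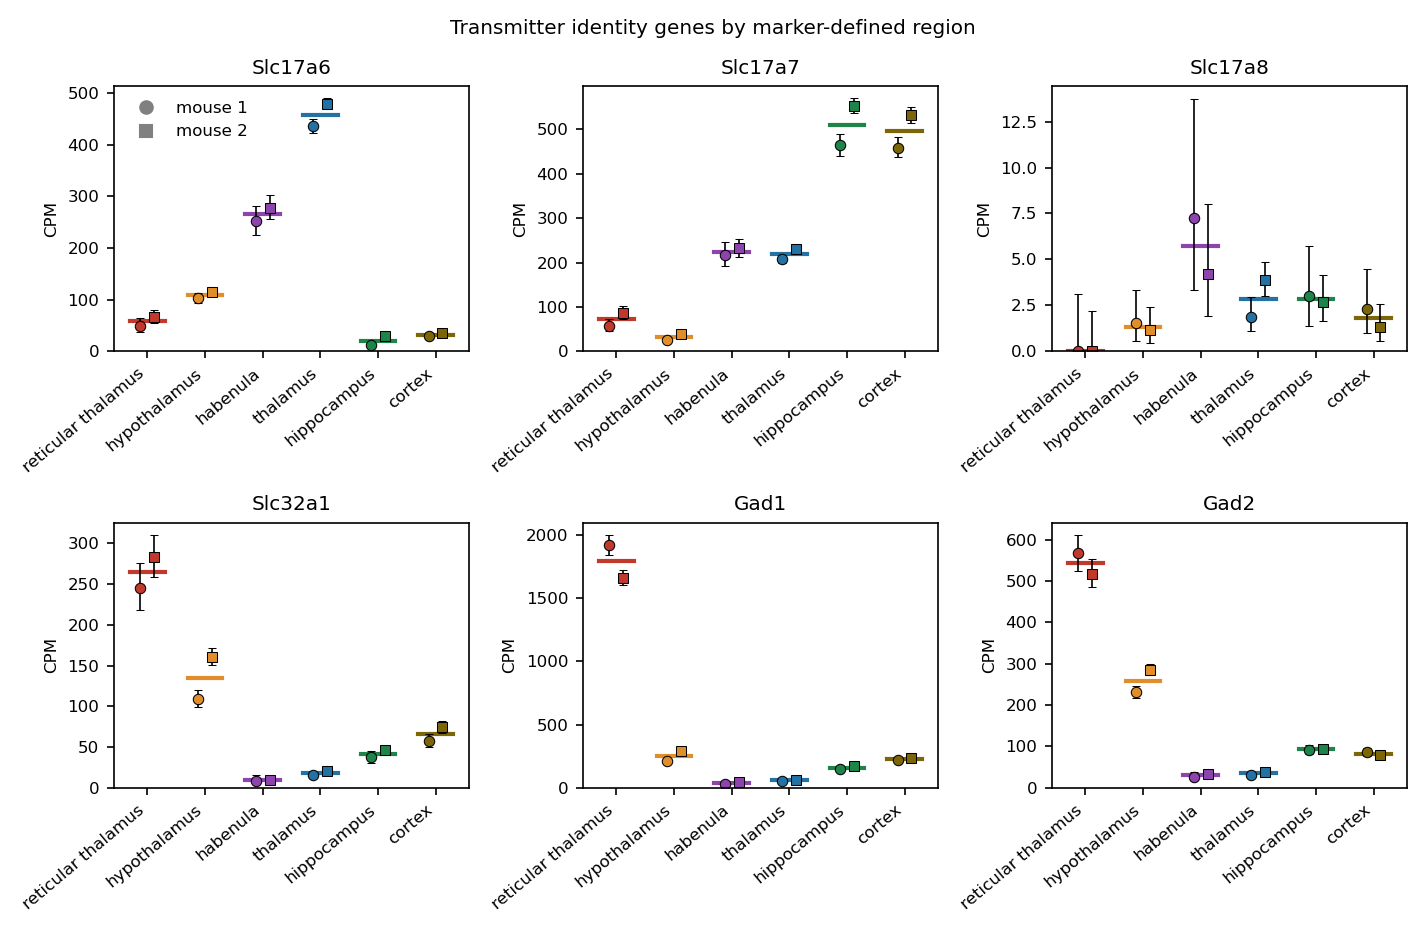
Level of each of the 6 genes (y axis, CPM, each panel with its own linear scale from 0) in the 6 regions (x axis), with circles for mouse 1, squares for mouse 2, whiskers for exact 95% Poisson intervals and bars for the mean of the 2 mice. Gad1 reached 1920.0 and 1663 CPM in reticular thalamus, and Slc17a6 436 and 479.8 CPM in thalamus.

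**Figure D2:**
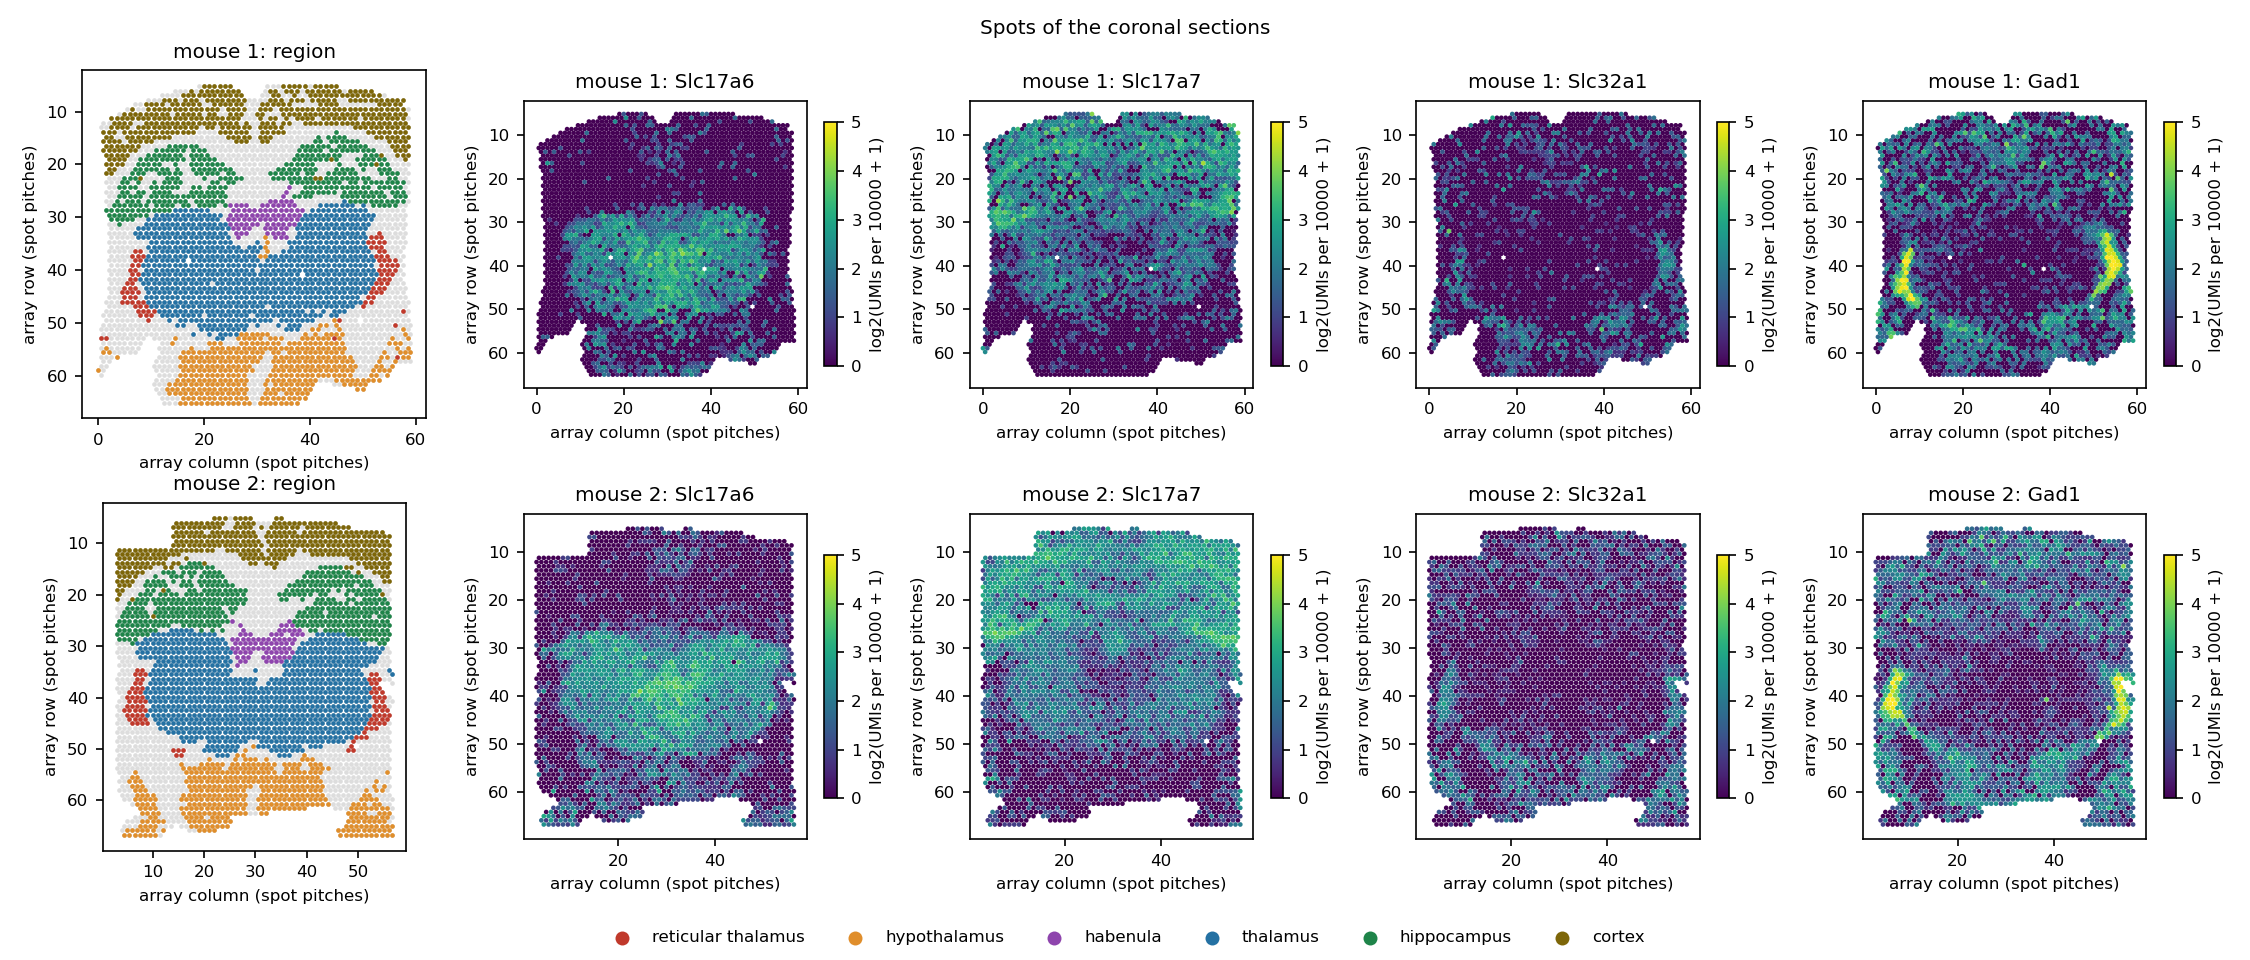
Maps of the spots of mouse 1 (top) and mouse 2 (bottom) in array position, coloured by region in the first column and by the level of Slc17a6, Slc17a7, Slc32a1 and Gad1 in the others, as log2 of UMIs per 10000 UMIs plus 1. Slc17a6 fills the thalamus, Slc17a7 the cortex and hippocampus, and Gad1 a narrow arc on each side that is reticular thalamus.

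The 6 comparisons of regions asked where these genes differ, on UMIs summed per mouse and region (12 libraries) in 1 edgeR quasi-likelihood fit with mouse as a block. All 6 genes passed the filter on low counts and were among the 13516 genes tested, and p-values were adjusted over all of these with the Benjamini-Hochberg method at a threshold of 0.05. The comparisons share regions, so their values are given side by side and are not independent of each other. Errors of log2 fold changes are SEs.

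In thalamus against cortex the VGLUT2 gene rose and the VGLUT1 and GABA genes fell. Of the 6 genes 1 was higher, 4 were lower and 1 did not pass, where 47.8% of all genes tested passed in either direction (23.8% higher and 24% lower). Slc17a6 was 13.05-fold higher in thalamus (log2 fold change 3.71 ± 0.11, adjusted p = 3.6e-29). Slc17a7 fell by 1.32 ± 0.08 on the log2 scale in thalamus (adjusted p = 3.25e-18). The GABA genes fell together: Gad1 by 2.10 ± 0.10, Slc32a1 by 1.97 ± 0.10 and Gad2 by 1.33 ± 0.10 on the log2 scale, with adjusted p of at most 4.74e-15. Slc17a8 had a log2 fold change of 0.75 ± 0.44 and did not pass (adjusted p = 0.168), and its sign differed between the mice (-0.36 and 1.22).

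Lists of other genes of these pathways gave the surrounding picture of the same comparison. Of 13 transcription factors of GABA neurons tested, 9 were lower and 2 higher in thalamus than in cortex. Lhx6, a factor of cortical interneurons, fell by 4.41 ± 0.44 on the log2 scale and Dlx5, of the same developmental programme, by 3.54 ± 0.63, while Nr2f2, also found in other cells, rose by 3.84 ± 0.21. Of 11 interneuron markers 8 were lower and 2 higher, led by the peptide genes Vip (fell by 5.73 ± 0.19), Crh (fell by 5.16 ± 0.45) and Sst (fell by 4.45 ± 0.12). Of 8 transcription factors of glutamate neurons 6 were lower and 2 higher, and Emx1 and Neurod6, of the cortical lineage, fell by 5.24 ± 0.28 and 4.12 ± 0.13. The largest change in this list was a rise, that of Nhlh2 (9.35 ± 0.63, with single-mouse values of 5.29 and 5.44). Of 13 genes of glutamate supply and uptake 6 were higher and 3 lower, with rises in Slc38a1, a glutamine transporter (0.90 ± 0.09), and Glud1, glutamate dehydrogenase (0.67 ± 0.08). Of 5 genes of GABA uptake and breakdown 3 were higher and none lower, among them Slc6a11, the transporter GAT3 (2.11 ± 0.11), and Abat, GABA transaminase (0.87 ± 0.09). Of 8 oligodendrocyte markers 7 were higher and of 8 astrocyte markers 5 were higher and 1 lower, and the part of these in the results above was not tested.

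In hippocampus against cortex the genes differed little. None was higher, 3 were lower and 3 did not pass, where 23.2% of all genes tested passed (11.5% higher and 11.7% lower). Slc32a1 fell by 0.70 ± 0.11 (adjusted p = 1.58e-06) and Gad1 by 0.54 ± 0.10 (adjusted p = 4.07e-05) on the log2 scale in hippocampus. Slc17a6 fell by 0.53 ± 0.16 (adjusted p = 0.0137), by 1.26 in mouse 1 and 0.31 in mouse 2, and this call was lost with DESeq2 (adjusted p = 0.163) and without the mouse block (0.145). Slc17a7 differed by 0.02 ± 0.08 (adjusted p = 0.899), Gad2 by 0.17 ± 0.10 (adjusted p = 0.274) and Slc17a8 by 0.69 ± 0.52 (adjusted p = 0.388). The falls of Slc32a1 and Gad1 were lost when spots were thinned to equal depth (adjusted p = 0.162 and 0.137). Of 8 transcription factors of glutamate neurons 7 were higher in hippocampus, among them Bhlhe22 (2.49 ± 0.15), and of 13 of GABA neurons 4 were lower and 1 higher. Of 13 genes of glutamate supply and uptake 5 were lower and 2 higher, and of 5 of GABA uptake 1 was higher and 1 lower.

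In reticular thalamus against thalamus all 3 GABA genes rose and all 3 glutamate genes fell, where 30.6% of all genes tested passed in either direction (14.9% higher and 15.7% lower). Gad1 was 34.1-fold higher in reticular thalamus (log2 fold change 5.09 ± 0.11, adjusted p = 1.15e-34), and with border spots left out the log2 fold change was 5.76. Gad2 was 16.9-fold higher (4.08 ± 0.10, adjusted p = 6.12e-33) and Slc32a1 15.8-fold higher (3.98 ± 0.10, adjusted p = 1.52e-31). Slc17a6 fell by 2.81 ± 0.13 and Slc17a7 by 1.43 ± 0.12 on the log2 scale (adjusted p = 7.99e-22 and 2.13e-13). Slc17a8 passed the test (adjusted p = 0.00674): over both mice thalamus had 3.20 CPM, at least 3.06-fold higher than the limit of 3 counts allows in reticular thalamus, where it had 0 UMIs. In mouse 1 alone the thalamic level lay under that limit, and with border spots left out the call was lost (adjusted p = 0.188). Midline spots, described below, held 83 of the 91 thalamic UMIs. The rest of the thalamus had a mean of 0.43 CPM over the mice, under the reticular limit of 1.04 CPM for both mice. Outside the midline a difference from reticular thalamus therefore cannot be shown.

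Of 13 transcription factors of GABA neurons 8 were higher in reticular thalamus and none lower: Dlx6 rose by 5.13 ± 0.37, Dlx5 by 4.43 ± 0.76 and Dlx1 by 4.11 ± 0.45. Of 8 of glutamate neurons 5 were lower and none higher, and Neurod1 fell by 2.69 ± 0.64. Of 11 interneuron markers 3 were higher and 2 lower: Sst, somatostatin, rose by 4.57 ± 0.13, while Adarb2 fell by 2.62 ± 0.22. Of the 13 genes of glutamate supply and uptake 2 were higher and 2 lower. Of 5 GABA uptake genes Abat was higher (0.55 ± 0.09) and Slc6a11 lower (fell by 0.58 ± 0.12). All 8 oligodendrocyte markers were higher as well, with a median of 1.23, and Gfap, an astrocyte gene, rose by 3.36 ± 0.14; the part of these in the results was not tested.

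In hypothalamus against thalamus the 3 GABA genes rose and the 3 glutamate genes fell, where 52.2% of all genes tested passed (26% higher and 26.1% lower). Gad2 was 7.90-fold higher in hypothalamus (log2 fold change 2.98 ± 0.09, adjusted p = 3.99e-29), Slc32a1 7.85-fold (2.97 ± 0.09, adjusted p = 1.29e-28) and Gad1 4.64-fold (2.22 ± 0.10, adjusted p = 4.93e-23). Slc17a7 fell by 2.64 ± 0.11 and Slc17a6 by 1.96 ± 0.10 (adjusted p = 6.95e-25 and 8.74e-22). Slc17a8 fell by 1.12 ± 0.47 (adjusted p = 0.0401), by 0.09 in mouse 1 and 1.42 in mouse 2. Without the 43 and 134 corner spots, hypothalamus had 23.7 and 29.5 CPM of Slc17a7 and 216 and 314 of Gad1 in mouse 1 and mouse 2, and only the Slc17a8 call was lost among the 6 (adjusted p = 0.112); it was also lost with DESeq2 (0.257) and without the mouse block (0.0977).

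Of 13 transcription factors of GABA neurons 11 were higher in hypothalamus than in thalamus and none lower, with Dlx1 (4.52 ± 0.29), Dlx6 (4.29 ± 0.31) and Dlx2 (4.06 ± 0.41) leading. Of 8 of glutamate neurons 5 were lower and none higher, led by Zic4, which fell by 2.40 ± 0.27. Of 13 glutamate supply and uptake genes 9 were lower and 2 higher, and the neuronal glutamate transporter gene Slc1a1 fell by 1.501 ± 0.09, while Slc1a6, another glutamate transporter gene, rose by 1.66 ± 0.19. Of 11 interneuron markers 9 were higher and 1 lower, and Tac1, Chodl and Crh rose by 5.18 ± 0.13, 5.43 ± 0.35 and 5.82 ± 0.40. Slc18a2, the vesicular monoamine transporter VMAT2, rose by 1.90 ± 0.38, and 2 of the 4 tested transporters of other transmitters were higher. Of 5 GABA uptake genes 2 were higher, among them Abat by 0.29 ± 0.08. Of 8 oligodendrocyte markers 6 were lower, with a median of -0.26.

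In habenula against thalamus 3 of the 6 genes were lower, none was higher and 3 did not pass, where 39.2% of all genes tested passed (18.7% higher and 20.5% lower). The habenula set shares Tac2, Nwd2, Pou4f1, Gng8, Chrnb4 and Chrna3 with the medial habenula set used below. In mouse 1 and mouse 2, 30 and 30 habenula spots were called medial and 13 and 9 lateral. The comparison therefore leans towards medial habenula and may not hold for the lateral part. Slc17a6 was 1.88-fold lower in habenula (log2 fold change -0.91 ± 0.10, adjusted p = 1.75e-10). Slc32a1 fell by 1.14 ± 0.23 and Gad1 by 0.75 ± 0.16 (adjusted p = 9.97e-05 and 0.000147), but both calls were lost at equal depth (adjusted p = 0.443 and 0.506). Thinning left a Slc32a1 UMI in 3.23% and 3.57% of habenula spots of mouse 1 and mouse 2, where all UMIs gave 10.8% and 19.0%. The lost calls therefore do not tell lost counts from unequal depth. Slc17a7 differed by -0.09 ± 0.09 (adjusted p = 0.497), Gad2 by -0.34 ± 0.17 (adjusted p = 0.102) and Slc17a8 by 0.66 ± 0.46 (adjusted p = 0.275). The sign of Slc17a8 differed between mouse 1 and mouse 2 (1.67 and -0.017). With border spots left out the log2 fold changes were -1.91 for Slc32a1 and -1.37 for Gad1, and Gad2 passed as lower (-0.91, adjusted p = 0.00457), and it also passed with no filter on low counts (adjusted p = 0.0370). With regions drawn by clusters, Slc17a7 passed as lower in habenula (-0.26, adjusted p = 0.0151), while with scaling by library totals its sign turned (0.03).

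The lists were read over the same habenula spots, which lean towards the medial part. Of 4 tested transporters of other transmitters 2 were higher in habenula and 1 was lower. Slc5a7, the choline transporter, rose by 6.10 ± 0.26 and Slc18a3, which loads acetylcholine into vesicles, by 5.99 ± 0.40 on the log2 scale (adjusted p = 1.27e-23 and 1.16e-16). Of 8 transcription factors of glutamate neurons 7 were higher in habenula, led by Neurod1 (3.07 ± 0.17) and Zic4 (2.57 ± 0.15). Of 13 of GABA neurons 1 was higher and 2 lower. Of 13 glutamate supply and uptake genes 8 were lower and none higher, and Slc1a1 fell by 1.69 ± 0.12 and Slc1a2, the main astrocyte glutamate transporter, by 0.84 ± 0.09. Of 5 GABA uptake genes 1 was higher, Slc6a13 (1.85 ± 0.35), and 2 were lower. Of 11 interneuron markers 5 were higher and 2 lower, led by Sncg (5.21 ± 0.10).

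In reticular thalamus against hypothalamus, both rich in GABA genes, 4 of the 6 genes were higher, 1 was lower and 1 did not pass, where 32.6% of all genes tested passed (16.3% in each direction). Gad1 was 7.34-fold higher in reticular thalamus (log2 fold change 2.88 ± 0.10, adjusted p = 4.79e-27), Gad2 2.14-fold (1.10 ± 0.09, adjusted p = 3.92e-14) and Slc32a1 2.01-fold (1.01 ± 0.09, adjusted p = 1.97e-12). Slc17a6 fell by 0.85 ± 0.15 and Slc17a7 rose by 1.21 ± 0.15 (adjusted p = 1.35e-05 and 1.11e-08), and at equal depth the Slc17a7 call was lost (adjusted p = 0.307). Slc17a8, with 0 UMIs in reticular thalamus, did not pass (adjusted p = 0.0827). Of 13 transcription factors of GABA neurons 3 were higher and 2 lower: Sp8 rose by 1.89 ± 0.53, while Lhx6 and Sp9 fell by 3.92 ± 1.04 and 2.27 ± 0.64. Of 8 of glutamate neurons 1 was lower, and of 13 glutamate supply genes 10 were higher and 2 lower. All 8 oligodendrocyte markers were higher, with a median of 1.5002, above the log2 fold changes of Gad2 and Slc32a1, and their part in those values was not tested.

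**Figure D3:**
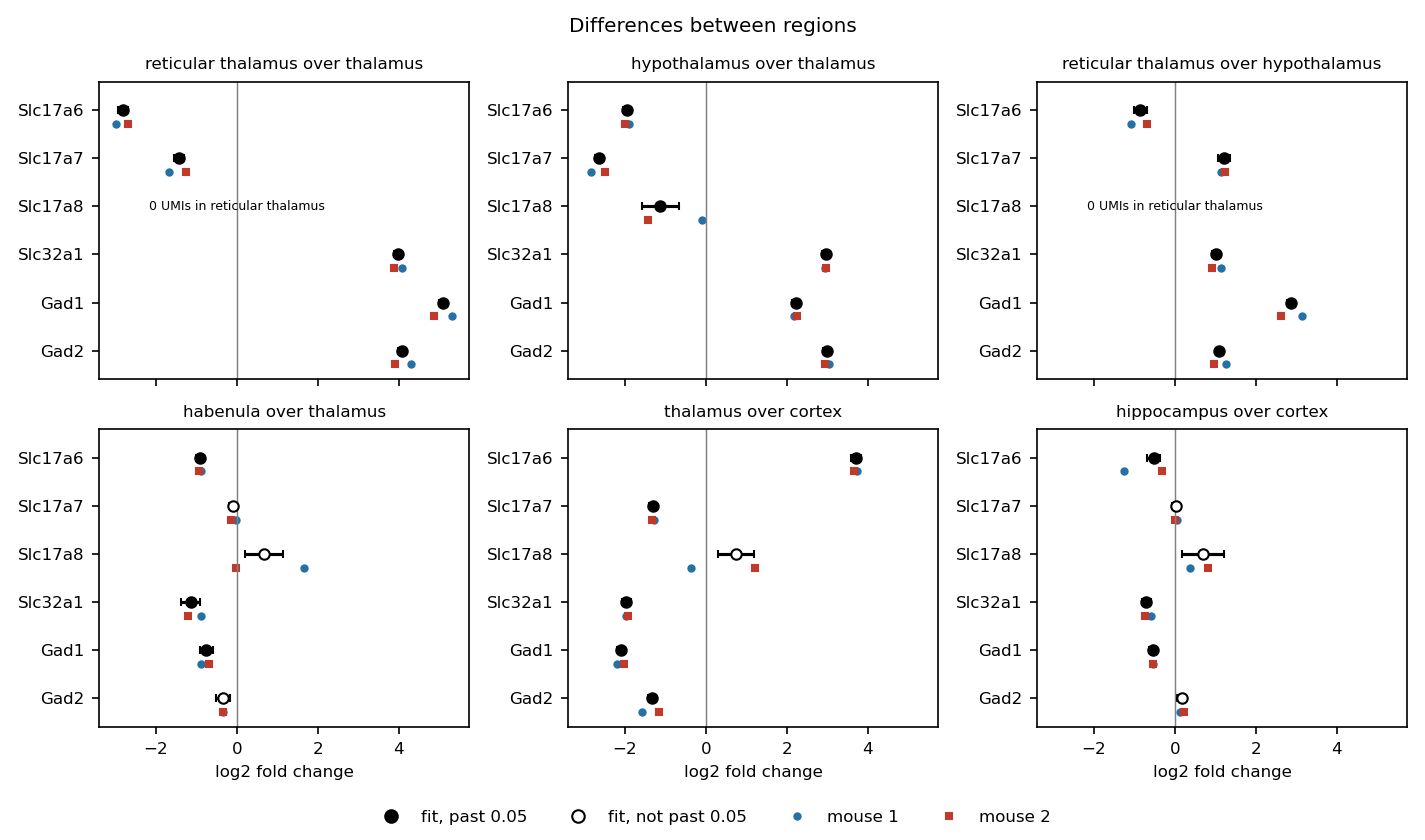
Log2 fold changes (x axis) of the 6 genes in the 6 comparisons of regions, with black symbols for the fit (filled where the adjusted p is under 0.05, bars for the SE), blue circles for mouse 1 and red squares for mouse 2. All 3 GABA genes lie above 0 for reticular thalamus and for hypothalamus against thalamus, with Gad1 at 5.09 and 2.22.

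Smaller structures were drawn within each region by further marker sets. In the thalamus, midline spots had more Slc17a6, 609.8 and 659.7 CPM in mouse 1 and mouse 2 against 378 and 403 in the rest of the thalamus, and less Slc17a7, 152 and 155 CPM against 226 and 263. Nearly all thalamic Slc17a8 was in the midline: 14 and 69 UMIs (5.84 and 12.2 CPM), against 4 and 4 UMIs (0.558 and 0.302 CPM) in the rest, and the intervals did not overlap in either mouse. Gad1 was lower in midline spots (33.8 and 32.6 CPM) than in the rest (59.8 and 76.7 CPM).

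In the habenula, medial spots had more Slc17a7 than lateral spots in both mice, with counting intervals that did not overlap. Medial habenula, which holds neurons that project to the interpeduncular nucleus, had 319 and 335 CPM of Slc17a7 in mouse 1 and mouse 2, and lateral habenula, which projects to midbrain nuclei, 83.7 and 145. Slc17a6 was 248 and 219 CPM in medial and 257 and 368 CPM in lateral habenula, with overlapping intervals in mouse 1. The lateral values rest on 13 and 9 spots, with 14 and 31 UMIs of Slc17a7. Gad1 was low in both, at 11.2 and 30.6 CPM in medial and 23.9 and 18.7 CPM in lateral spots.

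Within the cortex, layer 6, the deepest, had the most Slc17a7 (626 and 704 CPM in mouse 1 and mouse 2) and the least Slc17a6 (8.05 and 11.1 CPM). Retrosplenial cortex had the most Slc17a6 of the cortical structures, 76.8 and 93.6 CPM, above the white matter background in both mice. Layer 5 had the most Gad1 in mouse 1 (332 CPM), and in mouse 2 its 285 CPM were close to the 288 CPM of retrosplenial cortex. Gad2 in layer 5, at 63.3 and 69.6 CPM, was the lowest of the cortical structures in both mice.

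Within the hippocampus, the CA2 and CA3 layers had the most Slc17a7, 786 and 851 CPM in mouse 1 and mouse 2, CA1 444 and 506 and the dentate granule layer 291 and 492. Slc17a8 was 8.53 and 4.10 CPM in the CA2 and CA3 layers, from 5 and 7 UMIs, which is too few to rank them. In the hypothalamus, lateral spots had 248 and 353 CPM of Gad1 and medial spots 177 and 253. Slc17a6 there was 49.996 and 87.4 CPM in lateral and 102 and 102 CPM in medial spots. The lateral spots had more Gad1 than the medial ones in both mice, while for Slc17a6 the counting intervals overlapped in mouse 2.

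**Figure D4:**
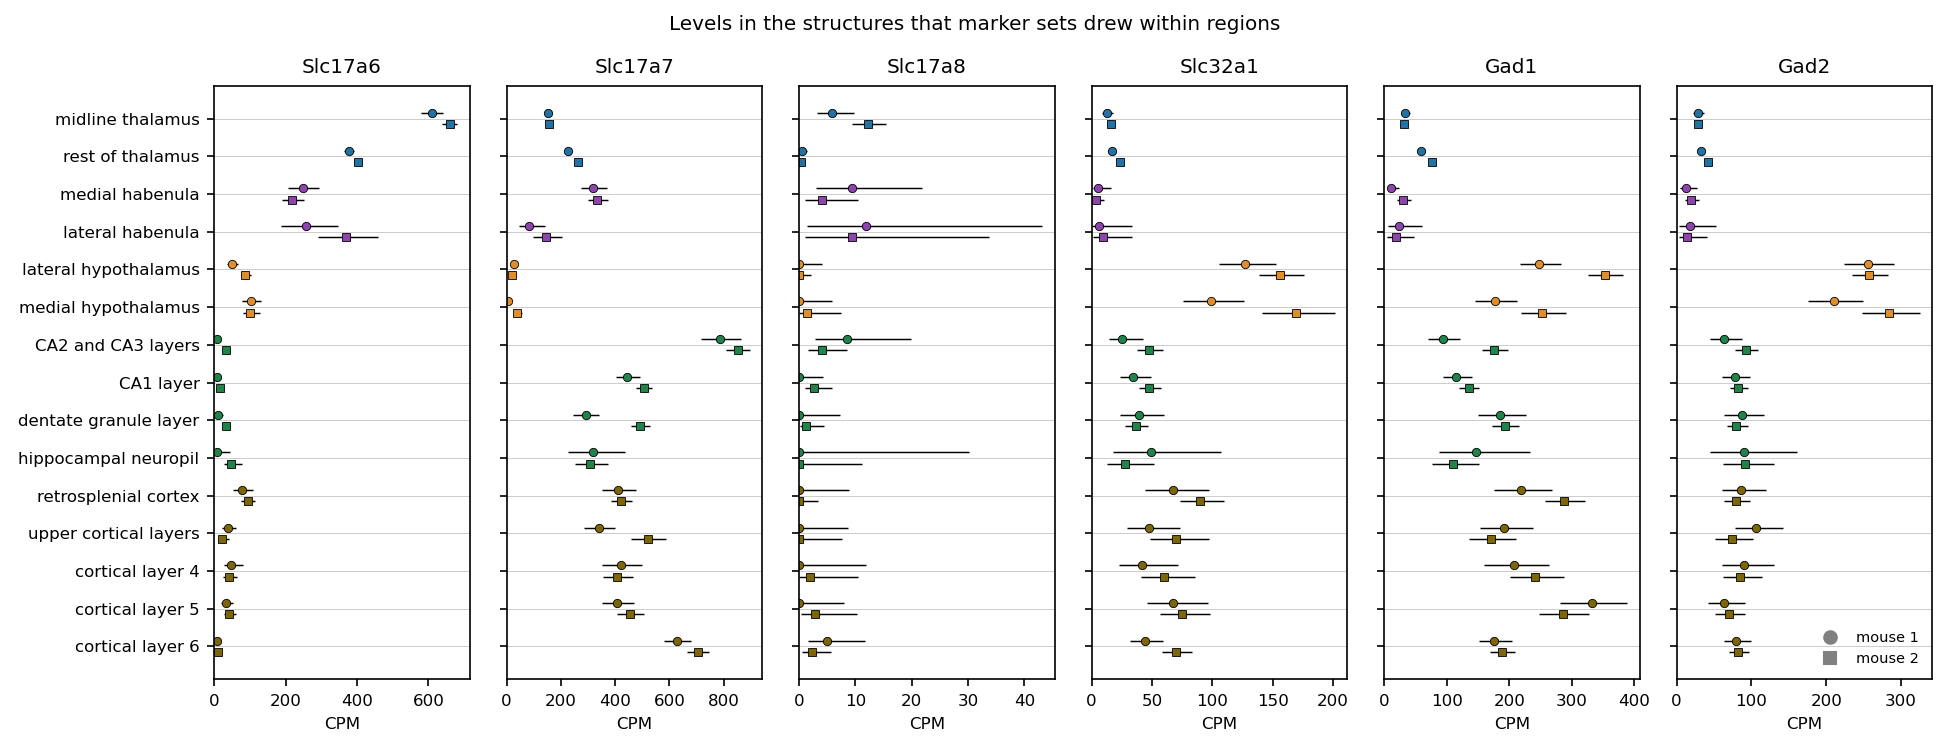
Level (CPM, with exact 95% Poisson intervals) of the 6 genes in 15 structures within the regions, with circles for mouse 1 and squares for mouse 2. Slc17a6 is highest in midline thalamus (609.8 and 659.7 CPM) and Slc17a7 in the CA2 and CA3 layers (786 and 851 CPM), while the wide Slc17a8 intervals of the lateral habenula rest on 2 UMIs in each mouse.

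The balance between VGLUT2 and VGLUT1 was read as the share of Slc17a6 among the UMIs of Slc17a6 and Slc17a7. It was 46.0% and 43.6% in reticular thalamus of mouse 1 and mouse 2, 80.3% and 74.7% in hypothalamus, 53.7% and 54.6% in habenula and 67.8% and 67.5% in thalamus, against 2.47% and 4.97% in hippocampus and 5.96% and 6.10% in cortex. White matter had 20.6% and 26.2% and choroid plexus 12.3% and 10.6%. All 4 subcortical regions lay above these, and above hippocampus and cortex, in both mice. The reticular share comes from levels near (Slc17a6) or under (Slc17a7) those of white matter. Midline thalamus reached 80.1% and 81.0%, lateral habenula 75.4% and 71.8%, medial habenula 43.8% and 39.6%, and retrosplenial cortex 15.8% and 18.2% against 1.27% and 1.56% in layer 6. Most thalamic spots held both transcripts: of spots with at least 5 UMIs of the pair, 85.9% and 88.5% had a share between 10% and 90%.

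The balance between GABA and glutamate genes was read as the share of Gad1, Gad2 and Slc32a1 among the UMIs of all 6 genes. It was 96.2% and 94.2% in reticular thalamus of mouse 1 and mouse 2, 81.0% and 82.6% in hypothalamus, 12.1% and 14.3% in habenula, 13.5% and 14.7% in thalamus, 36.6% and 34.7% in hippocampus and 42.5% and 40.7% in cortex. The reticular thalamus and hypothalamus were mostly GABA genes by this share, and the thalamus and habenula mostly glutamate genes. White matter, taken as the background, had 60.9% and 58.9% and was thus also mostly GABA genes, and choroid plexus had 43.6% and 47.2%. Of white matter spots with at least 5 UMIs, 26.1% and 18.7% had a GABA share of 90% or more, so white matter is a reference and no floor. Reticular thalamus and hypothalamus lay above both, and thalamus and habenula below both. The cortex share was close to that of choroid plexus. Of spots with at least 5 UMIs, 80.2% and 76.6% in reticular thalamus had a GABA share of 90% or more, against 47.6% and 39.4% in hypothalamus. In thalamus 48.2% and 45.9% of such spots had a share of 10% or less.

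The balance among the GABA genes also differed between regions. Gad2 made up 22.8% and 23.7% of Gad1 and Gad2 UMIs in reticular thalamus of mouse 1 and mouse 2, 52.1% and 49.7% in hypothalamus, 37.4% and 37.7% in thalamus, 38.1% and 35.8% in hippocampus and 28.1% and 24.9% in cortex. Reticular thalamus and hypothalamus, the regions richest in these genes, lay at opposite ends. Layer 5 was the lowest cortical structure, at 16.0% and 19.6%. Slc32a1 made up 8.99% and 11.5% of GABA gene UMIs in reticular thalamus and 19.7% and 21.9% in hypothalamus, with cortex at 15.8% and 19.1%.

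Whether the genes exclude each other was read spot by spot after thinning every spot to 3000 UMIs, as the share of spots with both genes beside the product of the single shares. Intervals of the ratios are those of the joint share divided by the product. They treat the product as fixed although it comes from the same spots, so they cannot decide whether genes occur independently. Slc17a6 and Slc17a7 were found together in 28.04% of thalamic spots of mouse 1 (product 28.6%) and 33.3% of mouse 2 (product 34.8%). In habenula the values were 18.3% (product 19.3%) and 17.9% (product 19.0%). In both regions the joint share lay slightly under the product in both mice. The products lay inside the counting intervals of the joint shares, which cannot decide whether this shortfall is real. In hypothalamus the ratio of measured to product was 0.588 in mouse 1, with an interval of 0.216 to 1.27, and 1.46 in mouse 2 (0.911 to 2.21), so the mice went opposite ways within counting error.

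Over the 6 regions pooled, Slc17a6 and Slc17a7 were together in 12.9% of spots of mouse 1 and 16.5% of mouse 2, against products of 15.2% and 18.9%, ratios of 0.848 (0.764 to 0.939) and 0.872 (0.797 to 0.952). Without thinning the ratios were 1.02 and 0.987, and with 2 UMIs needed for detection 0.529 and 0.657, so this ratio depends on how a spot is called. A glutamate gene and a GABA gene were together in 25.8% and 32.5% of spots, against products of 30.8% and 37.2%. Within regions the ratio for that pair was between 0.929 and 1.09 in all 6 regions of both mice. In the pooled spots the ratio was 0.838 (0.782 to 0.895) in mouse 1 and 0.873 (0.824 to 0.924) in mouse 2. Without thinning it was 0.964 (0.931 to 0.997) and 0.996 (0.978 to 1.01), so in mouse 2 the interval then included 1. Within each region the counting intervals of the thinned ratio included 1, which does not show that the genes occur independently there.

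Over the 6 regions pooled, the GABA genes occurred together more than the products. Gad1 and Gad2 were both found in 10.7% and 13.1% of the pooled spots of mouse 1 and mouse 2 against products of 6.95% and 8.79%, ratios of 1.54 and 1.49. Gad1 with Slc32a1 had ratios of 1.68 and 1.58, and Gad2 with Slc32a1 1.96 and 1.74. In reticular thalamus, where 93.8% and 96.8% of spots had Gad1, the joint shares of Gad1 and Gad2 were 71.1% and 74.7%, against products of 69.6% and 74.4%. In hypothalamus they were 23.5% and 27.8%, against 20.1% and 25.9%. Within each of the 6 regions the counting interval of the Gad1 and Gad2 ratio included 1 in both mice. As the product is treated as fixed, this does not show a lack of association within regions. In hypothalamus the joint share lay above the product in both mice.

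**Figure D5:**
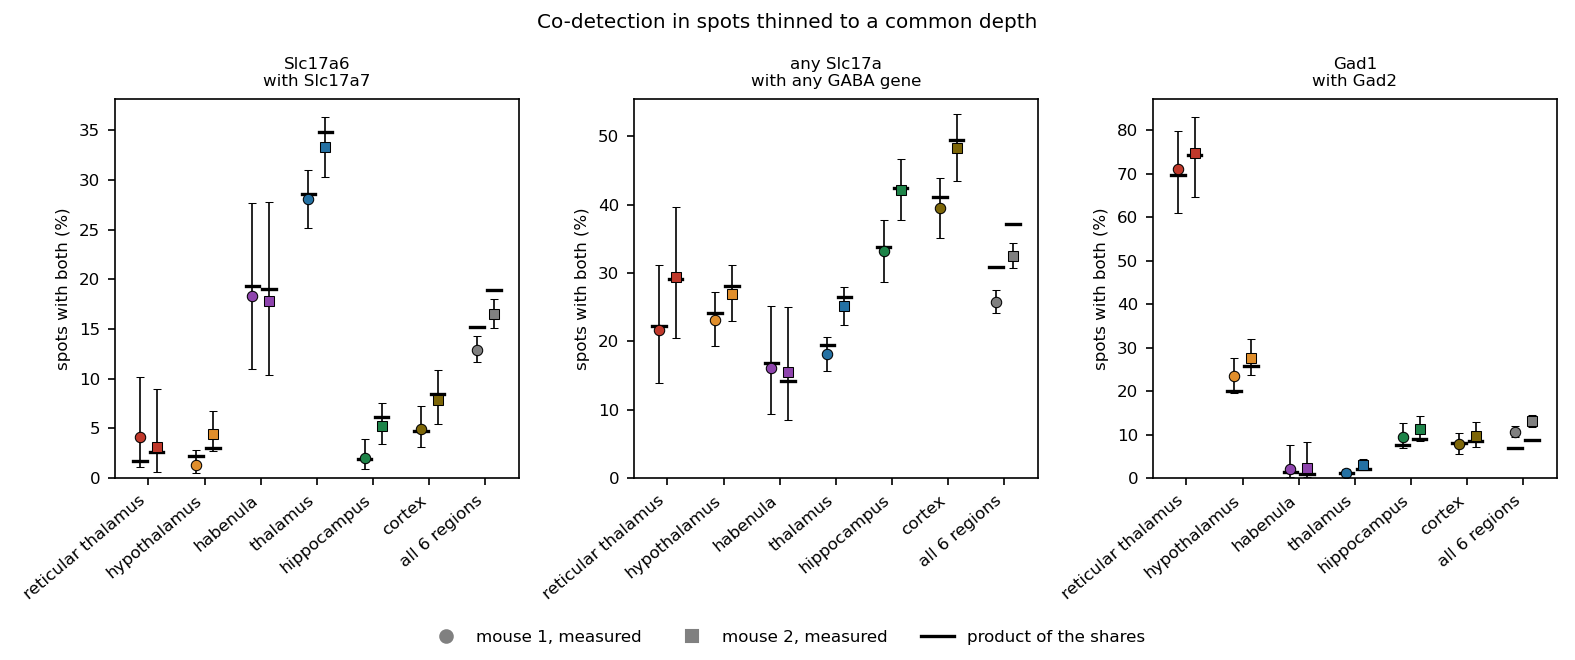
Share of spots (y axis, percent, after thinning to 3000 UMIs) in which both genes or gene groups were found, with exact 95% binomial intervals, for Slc17a6 with Slc17a7, any Slc17a gene with any GABA gene, and Gad1 with Gad2, in the 6 regions and in all 6 pooled; black dashes are the products of the single shares. In single regions the joint shares lie near the dashes, and for the first 2 pairs the pooled ones lie below them.

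The level of Slc17a7 in the thalamus was near that of choroid plexus, so it was set against the marker genes of cortex and hippocampus in the same spots. The score that made a spot thalamus had to beat those of the cortex and hippocampus sets, so the marker sum is low there partly by selection, and the ratios below are a description. Some of the markers were highest elsewhere in both mice: Cux2 and Prox1 in thalamus and Rasgrf2 and Rspo1 in hypothalamus. Likewise Hs3st4 was highest in reticular thalamus, and Fibcd1 and Tspan18 in habenula. Rasgrf2 alone had 129 and 127 CPM in hypothalamus, where the marker sum was 428 and 493 CPM. The ratios of these regions therefore do not measure RNA from cortex and hippocampus. Per UMI of 23 summed cortex and hippocampus markers, thalamus had 0.505 and 0.495 UMIs of Slc17a7 in mouse 1 and mouse 2 and habenula 0.485 and 0.416, against 0.224 and 0.275 in cortex and 0.162 and 0.187 in hippocampus. White matter had 0.274 and 0.279, choroid plexus 0.231 and 0.152 and hypothalamus 0.0591 and 0.0788. Thalamic spots more than 12 spot pitches from cortex and hippocampus had 195 and 215 CPM of Slc17a7 and a ratio of 0.521 and 0.527, against 258 and 275 CPM and 0.408 and 0.360 within 3 pitches. Hpca, a hippocampal gene, had 45.5 and 46.6 CPM at the far distance and 148 and 167 CPM at the near one. The part of RNA from neighbouring regions in these levels was not tested. At equal depth 41.3% and 48.0% of thalamic spots had a Slc17a7 UMI, close to the 43.0% and 45.5% of choroid plexus spots, so the share alone is not read as expression. Hippocampal Slc17a6 was 23.2 and 56.8 CPM within 3 pitches of thalamus and 9.502 and 19.0 CPM beyond 6.

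Genes whose level over all spots was most like each of the 6 were ranked by the lower of the Pearson correlations of the 2 sections, among 12373 genes. Spots share a library and depth, so these are descriptions. For Slc17a6 they were Tcf7l2, a thalamic transcription factor (0.70 in mouse 1 and 0.77 in mouse 2), Ntng1 (0.69 and 0.73), Prkcd, Rora and Plcb4, of which Ntng1, Prkcd and Rora are markers of the thalamus set. For Slc17a7 they were Cck (0.51 and 0.61), Nrgn, Ppp3ca, Olfm1 and Chn1, none in the marker sets used for the 6 regions. The GABA genes were like each other: Gad1 with Gad2 had 0.41 and 0.52, and Slc32a1 with Gad1 0.36 and 0.47. Six3, Pvalb and Spp1, markers of the reticular set, followed for Gad1, Six3, Nap1l5 and Nts for Gad2, and Sst, Six3 and Nap1l5 for Slc32a1. Slc17a6 had -0.26 and -0.34 with Gad1 and -0.09 and -0.13 with Slc17a7. For Slc17a8 the highest value was 0.11 and 0.19 (Necab1), which is weak and no finding.

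The image sides were compared within hippocampus, cortex and thalamus, because the injection was on 1 side, though the labels do not say which image side it is. Nor do they say whether an image is flipped, so the injected side may not be the same image side in both mice. The fit treats image left alike in both mice, so a difference tied to the injection could cancel between them. These comparisons therefore cannot decide whether the injected side differs. None of the 6 genes differed between image left and image right at an adjusted p under 0.05 in any of the 3 comparisons, where 0.0158% of the 12676 genes tested passed in hippocampus, 0% in cortex and 0.0237% in thalamus (0.00789% higher and 0.0158% lower on the left). The smallest unadjusted p was that of Gad2 in thalamus, with 34.7 and 45.7 CPM on the left of mouse 1 and mouse 2 against 28.3 and 31.1 CPM on the right (log2 fold change 0.45 ± 0.12, unadjusted p = 0.000503, adjusted p = 0.797). Gad1 in thalamus had 54.4 and 74.7 CPM on the left against 51.9 and 52.1 CPM on the right, an excess carried mainly by mouse 2. In cortex 0 of 12676 genes passed in edgeR (470 at an unadjusted p under 0.05) and 0 in DESeq2. Side by region differences for the 6 genes, 18 tests in all, gave 0 calls in edgeR, with 2 at an unadjusted p under 0.05.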

How the data were processed

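Sections of 2 mice were measured with 10x Visium. The authors deposited unnormalised UMI counts for each spot and gene. The file headers name Space Ranger 1.3.1 and the submitters' processing notes name mm10; how reads were aligned, and to which annotation, is not stated there. Spots under tissue with at least 500 UMIs were used, with scanpy 1.11.5, pandas 2.3.3, numpy 2.4.6, scipy 1.17.1, igraph 0.11.9 and matplotlib 3.10.9 under Python 3.11.15. Each spot was scored as the mean z of log counts per 10000 over each marker set, with a weight of 0.5 for the spot and the rest for its neighbours. A spot took the best set if it scored at least 0.3 (1 for reticular thalamus and habenula) and led the next by 0.1; these limits were chosen after the data were seen, and 16 and 11 reticular spots lay within 0.1 of the limit. A structure within a region needed 0.3. UMIs were summed per mouse and region and fitted by edgeR 4.0.16 under R 4.3.3, with TMM scaling, its filterByExpr filter and its quasi-likelihood test on 5 residual degrees of freedom. SEs are the log2 fold change divided by the square root of the F statistic, and rest mainly on a spread pooled over genes. Regions of a mouse come from the same animal, so mouse is the block. Single-mouse log2 values used a prior count of 2. Sides used 24 libraries. Thinning drew 3000 UMIs per spot. Alternatives were DESeq2 1.42.0, no filter, no block, 4 libraries per fit, Leiden clusters (22), interior spots and thinned spots, and, added after seeing the data, no score limits, library totals and hypothalamus spots near the midline. The 6 genes, lists and tests were chosen with earlier results of these data known. Named genes are the 6 themselves, the 5 genes most like each, and from each list in each comparison at most 3 past 0.05 with the largest change and both mice in 1 direction, of which the text gives a part. The fit was tested on simulated data.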

Additional observations from a re-analysis of the deposited data

How the results depend on the processing

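Of 36 results for the 6 genes in the comparisons of regions, 28 passed the test, and 20 of these kept direction and call under every alternative run. Thinning spots to equal depth lowered the number of genes called to 4031 in thalamus over cortex, 1338 in hippocampus over cortex, 4272 in hypothalamus over thalamus, 1630 in reticular thalamus over thalamus, 1736 in habenula over thalamus and 1713 in reticular thalamus over hypothalamus, where all spots gave 6454, 3133, 7050, 4138, 5293 and 4406; 11466 genes were tested in place of 13516. In hippocampus over cortex DESeq2 called 1771 and the fit with no mouse block 1868; the block moved no other region count by over 1.5 times. With interior spots, 2401 genes were called in reticular thalamus over thalamus and 2702 in reticular thalamus over hypothalamus. For image sides, DESeq2 called 0, and the fit with no block 1, of the main 2 genes in hippocampus; no filter gave 2 in cortex (main 0); in thalamus DESeq2 and no block gave 0 and no filter 11 (main 3).

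Signs turned for differences that had not passed: Slc17a7 in hippocampus over cortex with Leiden clusters (-0.052) and thinned spots (-0.076), Gad2 there with interior spots (-0.0057), Slc17a7 in habenula over thalamus with library totals (0.031), and, for image sides without midline spots, Slc32a1 (-0.0029) and Gad1 (0.068) in cortex and Slc17a8 (-0.30) in thalamus, where DESeq2 gave -0.0016. Beyond the calls named above, Slc17a6 in hippocampus over cortex was lost with Leiden clusters and thinned spots (adjusted p = 0.0690 and 0.154), Slc17a8 in hypothalamus over thalamus without score limits (0.102), and Slc17a8 in reticular thalamus over hypothalamus was gained without score limits (0.0284). The ratio of joint to expected spots for Slc17a6 with Slc17a7 was 1.02 and 0.987 without thinning, 0.529 and 0.657 with 2 UMIs needed, and 0.964 in mouse 1 with interior spots. Scaling by library totals moved the median of all genes by 0.14, -0.11, -0.16 and 0.12 in thalamus over cortex, hypothalamus over thalamus, reticular thalamus over thalamus and habenula over thalamus, and the share of calls that were higher to 64.3%, 39.3%, 31.0% and 61.1%, against 49.8%, 49.9%, 48.6% and 47.7%. With 1 mouse left out there is no test; for the regions 60 such values moved by less than the spread between mice and 12 by more. Thinning also removes counts, so a call lost with thinned spots does not tell lost counts from unequal depth. Depth limits Slc17a8 most, with 74 and 143 UMIs in all. The causes were not tested.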

Other observations

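Counts of lists outside glutamate and GABA handling are given as descriptions. Of all genes tested, 47.8% passed in thalamus against cortex, 23.2% in hippocampus against cortex, 52.2% in hypothalamus against thalamus, 30.6% in reticular thalamus against thalamus, 39.2% in habenula against thalamus and 32.6% in reticular thalamus against hypothalamus, and several of these counts are near or under those shares. Of 8 astrocyte markers 5 were higher and 1 lower in hippocampus against cortex, 2 were higher and 2 lower in hypothalamus against thalamus, 4 were higher and 1 lower in reticular thalamus against thalamus, 4 were higher and 2 lower in habenula against thalamus, and 3 were higher and 1 lower in reticular thalamus against hypothalamus. Gfap, the filament gene of astrocytes, rose by 2.38 ± 0.12 in hippocampus against cortex and by 2.45 ± 0.15 in habenula against thalamus (log2 ± SE). Of 8 oligodendrocyte markers 4 were lower in hippocampus against cortex and 6 in habenula against thalamus, with none higher. Of 8 vessel markers 5 were higher in thalamus against cortex, 1 in hippocampus against cortex, 4 in reticular thalamus against thalamus and 5 in reticular thalamus against hypothalamus, with none lower; 4 were lower in hypothalamus against thalamus, and in habenula against thalamus 2 were higher and 1 lower. Of 5 blood genes 1 passed in any of these comparisons, Hbb-bs, which fell by 0.51 ± 0.17 in habenula against thalamus.

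The same shares apply to the interneuron markers and to the transporters of other transmitters, a list too short to be read as a group. Of 11 interneuron markers 3 were higher and 4 lower in hippocampus against cortex, and 2 were higher and 5 lower in reticular thalamus against hypothalamus, where Tac1 fell by 5.25 ± 0.27. Of 4 tested transporters of other transmitters 1 was higher in thalamus against cortex, Slc6a9, a glycine transporter gene (1.23 ± 0.14), 0 passed in hippocampus against cortex, 2 were higher in reticular thalamus against thalamus, and in reticular thalamus against hypothalamus 1 was higher and 1 lower. In the comparisons of image sides 0 genes of any of the 10 lists passed.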
